A study of Mus musculus with 6 samples.

Results

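The nuclear genes of the respiratory chain were examined in bulk RNA sequencing of the irradiated mouse cortex. The members were chosen by gene name, as all genes of the counts table whose names start with Nduf followed by a, b, c, s or v and a number, with Uqcr, with Cox4 to Cox8 or with Atp5, together with Sdha to Sdhd, and without names that hold "-ps". This gave 84 of 51826 genes: 37 of complex I, 4 of complex II, 8 of complex III, 18 of complex IV and 17 of complex V. No measured value entered the name rule, but the list was put forward with earlier results of the same genotype comparison known, so its counts are a description and not independent evidence. The name rule leaves out subunits with other names (such as Cyc1 and Ndufab1), and it takes in Atp5s and Atp5sl, which are not subunits of ATP synthase. Ndufa4 and Ndufa4l2 were kept with complex I by their names, although Ndufa4 is now known as a subunit of complex IV.

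The 6 libraries came from the cortex of male BALB/c mice aged 6 to 8 weeks, 3 wild-type (Lgmn+/+-IR) and 3 knockout (Lgmn-/--IR), called by these 2 words from here on and taken 3 days after a single whole-brain dose of 10 Gy of X-rays. Lgmn encodes asparagine endopeptidase (AEP, legumain), a lysosomal cysteine protease. The knockout line was made from a floxed allele, targeted in embryonic stem cells and crossed with Flp and then with Cre mice, and the methods do not name the driver of the Cre. Both genotypes were irradiated and no non-irradiated library was analysed here, so each difference is one between genotypes after irradiation. The libraries were described as separate mice, and p-values measure only the spread between these samples.

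The respiratory chain is built from proteins of both genomes. Complex I (NADH dehydrogenase) and complex II (succinate dehydrogenase) pass electrons to ubiquinone, complex III passes them on to cytochrome c, and complex IV (cytochrome c oxidase) to oxygen. Complexes I, III and IV pump protons, and complex V (ATP synthase) uses the gradient to make ATP, on which neurons depend heavily for ion pumping and synaptic transmission. Mitochondrial DNA encodes a few hydrophobic core subunits, and all other subunits are nuclear genes of the kind listed here.

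Total counts ranged from 41874462 to 46829441 per library. Lgmn had 5558, 5528 and 5775 counts in the wild type and 3703, 3269 and 4109 in the knockout, and counts over the whole gene do not show which exons were transcribed. The neuronal markers (Rbfox3, Snap25, Syt1, Slc17a7 and Gad1) summed to 6017–7124 CPM (TMM-normalized counts scaled to library size) in the wild type and 6758–8308 CPM in the knockout, and none of the 5 was called. Markers of some other cells moved with genotype (over all genes tested, 1.68% were called lower and 1.65% higher). The 5 oligodendrocyte markers summed to 2415–2922 CPM in the wild type and 1690–1877 CPM in the knockout (4 of 5 called lower), the 5 blood markers to 7.59–15.8 and 234–2273 CPM (5 of 5 called higher), and the 5 astrocyte markers to 1540–1710 and 1873–1991 CPM (1 of 5, Aqp4, called higher). None of the 5 microglial, 5 endothelial and 5 choroid plexus markers was called. The microglial markers summed to 114–127 CPM in the wild type and 99.7–106 CPM in the knockout, without overlap, with 4 log2 fold changes negative and 1 positive. The endothelial and choroid plexus sums overlapped. The 5 striatal markers varied between 197 and 1085 CPM within genotypes. Because these are bulk samples, fewer cells of a type and less RNA per cell cannot be told apart, and the part of cell composition in the results below was not tested.

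Ndufs5, an accessory subunit of complex I, was the only member that passed the test across all genes, and the counts of a near-identical copy differed in the opposite direction. The sequences below are shown for Ndufs5 and 3 other members. Within the stretch that aligns to the copy, their reads can be told from those of the copy only at bases that differ. Each pair holds a stretch of the coding sequence (5′ to 3′, GENCODE M21 transcripts, GRCm38) and the aligned stretch of the copy, of 60 bases each except for the 54 of Cox7a2l, and the capitals mark where they differ.
Ndufs5: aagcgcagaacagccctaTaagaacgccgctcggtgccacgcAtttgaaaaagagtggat
BC002163: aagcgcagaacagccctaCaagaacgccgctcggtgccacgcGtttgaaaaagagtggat
Cox7a2l: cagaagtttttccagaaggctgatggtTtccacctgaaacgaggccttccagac
Gm6969: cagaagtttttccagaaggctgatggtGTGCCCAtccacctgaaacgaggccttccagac
Atp5g1: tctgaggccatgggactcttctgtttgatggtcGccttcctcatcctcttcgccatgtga
Gm10039: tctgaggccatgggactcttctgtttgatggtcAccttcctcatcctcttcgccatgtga
Cox5b: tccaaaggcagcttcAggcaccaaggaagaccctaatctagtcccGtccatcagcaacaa
Gm11273: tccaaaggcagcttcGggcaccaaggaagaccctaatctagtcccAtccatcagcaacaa

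Ndufs5 lies on the minus strand of chromosome 4 (chr4:123712710-123718202, GRCm38). BC002163 is a processed pseudogene on chromosome 16 (chr16:42955631-42955949), a copy without introns. It aligned to the Ndufs5 transcript over 319 bases with 99.37% identity, and the copy differed at T173C and A197G, counted from the first base of the start codon with the base of Ndufs5 first. Within the aligned stretch, reads that cover neither position match both genes equally well, so the counts of such a pair depend on how the authors' mapper and counter placed them. The pseudogenes and Gm11273 were named after their values were seen.

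Ndufs5 had 3372, 3316 and 3160 counts in the wild type and 549, 726 and 500 in the knockout. The groups were far apart, at 75.3 ± 5.12 and 13.1 ± 2.23 CPM (SD, n = 3 each), or 5.73-fold lower in the knockout. The log2 fold change was −2.52 ± 0.14 (SE; adjusted p = 0.000217, edgeR's quasi-likelihood F-test with adjustment over 18345 genes). BC002163 showed the opposite pattern. It had 46, 62 and 42 counts in the wild type and 3041, 3496 and 2859 in the knockout, a log2 fold change of 5.92 ± 0.19 (SE; adjusted p = 1.74e-05, edgeR). The sum of the gene and the copy was 80.1, 78.9 and 70.4 CPM in the wild type and 80.8, 90.9 and 76.5 CPM in the knockout, so that the groups overlapped. Of this sum, the copy held 1.5% ± 0.29 in the wild type and 84.2% ± 1.23 in the knockout (SD, n = 3 each). When every member was summed with its near-identical copies, in an alternative chosen after these counts had been seen, the log2 fold change of Ndufs5 was 0.11 ± 0.10 (SE; adjusted p = 0.599, edgeR) and no member was called, beside 3.26% of all genes tested in that fit. At an unadjusted p under 0.05 there were 9 members, beside 18.6% of all genes. Without summing, none of the 24 genes tested within 1 Mb of Ndufs5 was called (smallest adjusted p = 0.201, edgeR), beside 3.33% of all genes tested.

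**Figure D1:**
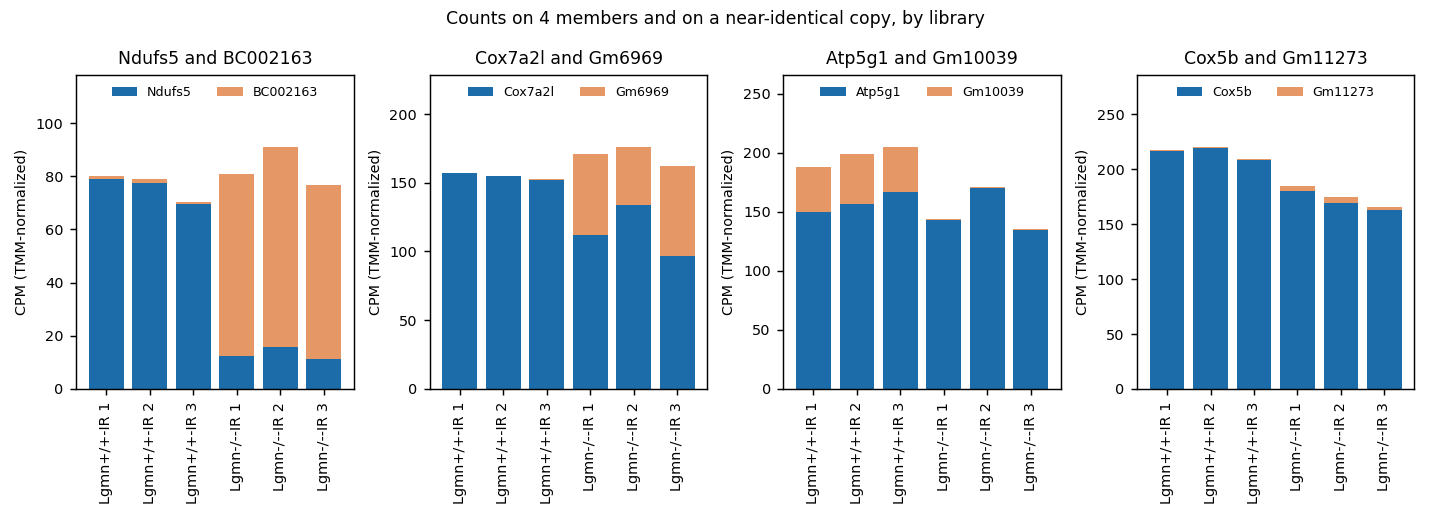
Stacked bars give the CPM (TMM-normalized) of Ndufs5, Cox7a2l, Atp5g1 and Cox5b (blue) and of a near-identical copy of each (orange) in the 6 libraries, without error bars because each bar is 1 library. In the knockout most of the Ndufs5 sum lies on BC002163, which held 1.5% of it in the wild type and 84.2% in the knockout, while the full bars overlap between genotypes.

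Near-identical copies (95% identity or more, along 80% or more of the shorter transcript and not under 150 bases) were found for 22 of the 84 members, in 41 pairs. Of these copies 15 had enough counts to be tested, and 4 were called, 3 higher and 1 lower (26.7%, against 3.33% of all genes tested). A copy that is high in 1 genotype passes the filter on low counts through that genotype, so this share supports nothing by itself. None of the 60 tested members without such a copy was called with edgeR, where 5 reached an unadjusted p under 0.05 beside 18.6% of all genes. DESeq2 called Cox6a2 and Ndufa6 of them, beside 6.09% of all genes in that fit.

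Cox7a2l, a protein related to subunit 7a that helps to join complexes III and IV into supercomplexes, had 6696, 6622 and 6927 counts in the wild type and 4979, 6202 and 4246 in the knockout. Every knockout library was below every wild-type library, but the difference did not pass the adjustment (log2 fold change −0.44 ± 0.12 SE, adjusted p = 0.122, edgeR). Gm6969, its processed pseudogene on chromosome 12 (chr12:24638669-24639010, 97.95% identity over 342 bases), had 5, 8 and 10 counts in the wild type and 2617, 1967 and 2857 in the knockout (adjusted p = 1.89e-05, edgeR). Gm6969 passed the filter on low counts through the knockout libraries, so this p-value supports nothing by itself. The 2 sequences differ in length: in the stretch printed above, 1 base of Cox7a2l stands in place of 7 bases of Gm6969, so that the pseudogene is 6 bases longer. Inbred mouse strains are known to differ by a short in-frame deletion in Cox7a2l, which C57BL/6, the strain of the reference genome, carries. Alleles cannot be read from counts per gene, and their part in this result was not tested. The sum of the pair was 157, 155 and 153 CPM in the wild type and 171, 176 and 162 CPM in the knockout, above every wild-type library, with a log2 fold change of 0.13 ± 0.08 (SE; adjusted p = 0.411, edgeR).

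Atp5g1, 1 of 3 genes for the c subunit that forms the rotating ring of ATP synthase, differed little between genotypes, with 6414, 6710 and 7577 counts in the wild type and 6350, 7901 and 5916 in the knockout (log2 fold change −0.08 ± 0.11 SE, adjusted p = 0.740, edgeR). Its processed pseudogene Gm10039 (chr11:100361716-100362126) differs at a single aligned base, G437A. It went the other way from the copies of Ndufs5 and Cox7a2l, with 1608, 1811 and 1743 counts in the wild type and 36, 38 and 22 in the knockout (log2 fold change −5.79, adjusted p = 1.89e-05, edgeR). The sum was 197 ± 8.58 CPM in the wild type and 150 ± 18.7 CPM in the knockout (SD, n = 3 each), with no overlap and a log2 fold change of −0.40 (adjusted p = 0.112, edgeR). Cox5b, a zinc-binding nuclear subunit of complex IV, had 9238, 9386 and 9491 counts in the wild type and 8015, 7862 and 7133 in the knockout. These did not overlap, and Cox5b had the smallest p after Ndufs5 (log2 fold change −0.33 ± 0.08 SE, adjusted p = 0.0807, edgeR). Gm11273 (chr13:21501029-21501418), which the annotation gives as protein-coding and which differs from Cox5b at C217T, A316G and G346A, had 37, 46 and 49 counts in the wild type and 187, 255 and 150 in the knockout. At this level the copy held at most 3.14% of the sum of the pair in any library, and the log2 fold change of the sum was −0.30 (adjusted p = 0.105, edgeR).

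Over the whole list, 82 of 84 members had enough counts to be tested. Cox8c had no count in any library, and Cox7b2 had 2, 0 and 2 counts in the wild type and 10, 10 and 18 in the knockout. Ndufs5 was the 1 member called lower, beside 1.68% of all genes tested, and no member was called higher, beside 1.65%. It was also the 1 DEG (an absolute log2 fold change over 1 as well), beside 2.06% of all genes. An unadjusted p under 0.05 was reached by 10 members, 7 lower and 3 higher, beside 18.6% of all genes. In 13 members every knockout library was below every wild-type library, and in 5 every one was above, beside 13.3% and 12.4% of all genes. The median log2 fold change of the members was −0.10 and that of all genes tested −0.01. With limma on log2(FPKM + 1), in place of counts, these were −0.16 and −0.04. Of the 82 members, 63 had a negative log2 fold change (76.8%, and 51.7% of all genes), and 79 lay within 0.5 of 0.

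**Figure D2:**
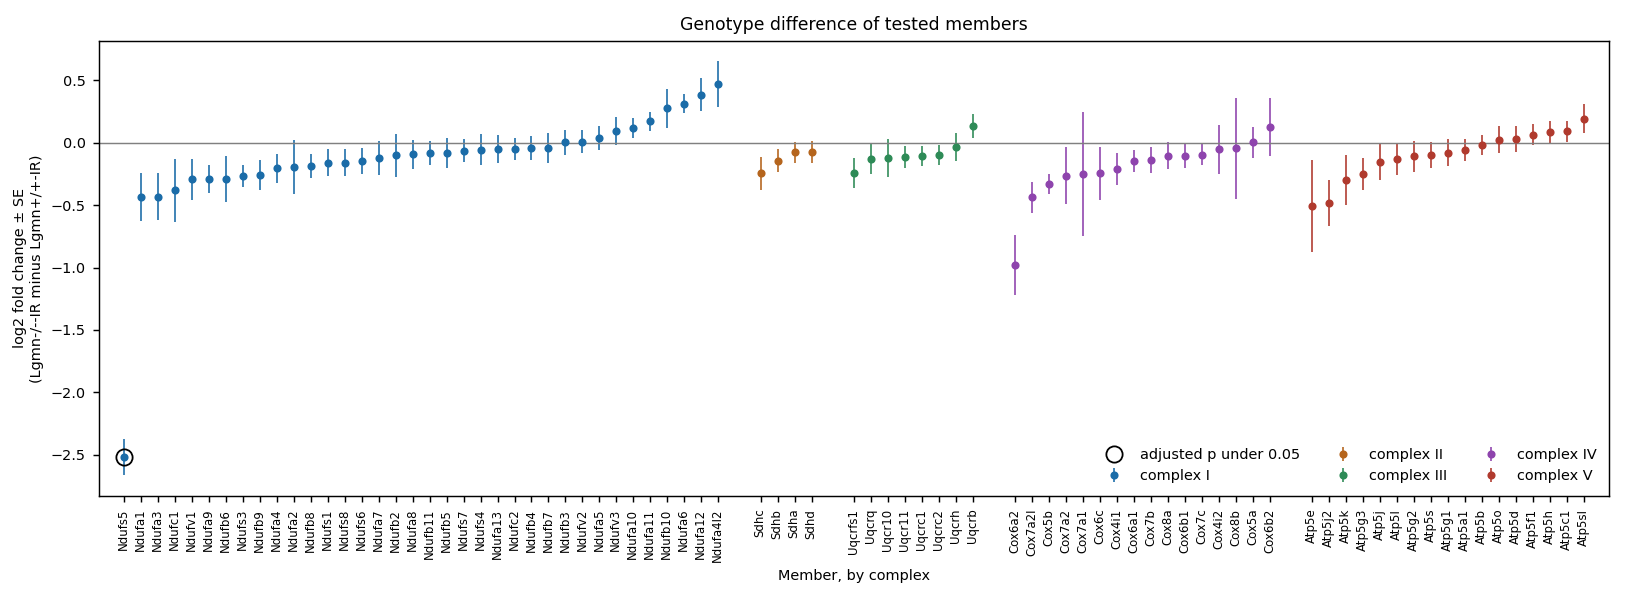
Each point is the log2 fold change (knockout minus wild type) of 1 of 81 tested members, ordered within complexes, with its standard error as the bar. Ndufs5 (circled, adjusted p under 0.05) lies farthest from 0, at −2.52, and was at 0.11 with near-identical copies summed (not plotted). Cox6a2 follows at −0.98, and 78 of the 81 points lie within 0.5 of 0.

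In complex I, 37 members were tested, with a median log2 fold change of −0.10, 27 of them negative and 10 positive. Among the core subunits that carry the flavin and iron-sulfur clusters or lie near the ubiquinone site, Ndufs1, Ndufs3, Ndufs7, Ndufs8, Ndufv1 and Ndufv2 lay between −0.30 in Ndufv1 and 0.01 in Ndufv2. Ndufs3 had 113, 112 and 116 CPM in the wild type and 96.1, 101 and 87.0 CPM in the knockout, groups that did not overlap (log2 fold change −0.27, adjusted p = 0.172, edgeR). For Ndufv1, the flavin-binding subunit where NADH is oxidized, the libraries did overlap, at 115, 115 and 105 CPM against 79.7, 115 and 77.8 CPM. Ndufs1, Ndufs7 and Ndufs8 had log2 fold changes of −0.16, −0.06 and −0.16.

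Accessory subunits of complex I stood at both ends. After Ndufs5 the lowest were Ndufa1 and Ndufa3, both with a log2 fold change of −0.43 and overlapping libraries (adjusted p = 0.284 and 0.277, edgeR). Ndufa6, an accessory subunit of the LYR-motif family, had 89.8, 84.7 and 84.3 CPM in the wild type and 105, 108 and 108 CPM in the knockout. The higher values in the knockout did not overlap with the others, and the difference missed the threshold (log2 fold change 0.31 ± 0.08 SE, adjusted p = 0.0878, edgeR), which it passed with DESeq2 (adjusted p = 0.0339). By CPM, Ndufa12 was also higher in every knockout library, at 99.0, 77.5 and 109 CPM against 75.8, 72.2 and 70.9 CPM (log2 fold change 0.38, adjusted p = 0.190, edgeR). By the deposited FPKM the groups overlapped, at 93.4, 64.8 and 98.6 in the knockout against 69.1, 65.9 and 65.2 in the wild type. Its processed pseudogene Gm15920 held 20.5% ± 0.70 of the sum of the pair in the wild type and 19.3% ± 2.60 in the knockout (SD, n = 3 each), so that here the split between gene and copy was alike in both genotypes. Ndufa1, Ndufa3, Ndufa6 and Ndufa12 were named after their values were seen. Ndufa4l2, a paralog of Ndufa4 that is known to rise in hypoxia, was low in this tissue, at 2.44, 2.80 and 2.46 CPM in the wild type and 4.12, 2.99 and 3.53 CPM in the knockout (log2 fold change 0.47, adjusted p = 0.237, edgeR), while Ndufa4 itself stood at −0.21 on the log2 scale (adjusted p = 0.400, edgeR). Ndufb3, an accessory subunit of the membrane arm, had the smallest difference in the complex (log2 fold change 0.00), with overlapping libraries (2268, 2765 and 2592 counts against 2664, 2733 and 2462).

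All 4 subunits of complex II had negative log2 fold changes, and none was called. Sdha, which carries the flavin and oxidizes succinate, had a log2 fold change of −0.08, and Sdhb, the iron-sulfur subunit, had 130, 139 and 133 CPM in the wild type and 119, 132 and 111 CPM in the knockout (log2 fold change −0.15, adjusted p = 0.451, edgeR). Of the membrane anchors, Sdhc had the largest difference of the complex, with 90.1, 93.0 and 88.5 CPM against 73.1, 91.2 and 65.0 CPM (log2 fold change −0.24, adjusted p = 0.375, edgeR), and Sdhd the smallest (−0.07). In Sdhb and Sdhc, replicate 2 of the knockout lay within the range of the wild-type libraries and replicates 1 and 3 below it.

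In complex III, 7 of 8 members had a negative log2 fold change, with a median of −0.11, and none was called. Uqcrfs1, the Rieske iron-sulfur protein that takes the first electron from ubiquinol, had 113, 123 and 114 CPM in the wild type and 99.99, 112 and 83.9 CPM in the knockout. The groups did not overlap in CPM (log2 fold change −0.24 ± 0.12 SE, adjusted p = 0.334, edgeR). They did in FPKM, at 73.8, 81.7 and 73.8 in the wild type and 64.1, 74.7 and 50.6 in the knockout. The large core proteins Uqcrc1 and Uqcrc2 had log2 fold changes of −0.11 and −0.10, the small subunit Uqcrq, which lies beside cytochrome b, −0.13, and the hinge protein Uqcrh −0.03. Uqcrb was the exception, at 0.13 (adjusted p = 0.507, edgeR).

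Complex IV had the lowest median of the 5 complexes, −0.14 over 16 tested members, and 14 of them were negative. Cox4i1, the main isoform of the first nuclear subunit to join the catalytic core, had 450, 452 and 425 CPM in the wild type and 359, 455 and 330 CPM in the knockout (log2 fold change −0.21, adjusted p = 0.422, edgeR). Here too replicate 2 of the knockout was at the level of the wild type and the other two below it. Cox5a, which binds Cox4i1 during assembly, showed no shift of the mean, with 145, 144 and 140 CPM against 135, 168 and 126 CPM (log2 fold change 0.00). Cox6a2, the heart and skeletal muscle form of subunit 6a, had 206, 230 and 253 counts in the wild type and 105, 93 and 159 in the knockout. It had the largest difference after Ndufs5 and its groups did not overlap, but it missed the threshold (log2 fold change −0.98 ± 0.24 SE, adjusted p = 0.0823, edgeR). Cox6a2 was called with DESeq2 (adjusted p = 0.00948) and with limma on log2(FPKM + 1) (adjusted p = 0.0370). In all, limma called 2 members on log2(FPKM + 1), beside 3.11% of all genes, and 2 on log2(FPKM + 0.1), beside 3.13%. Of 5 muscle markers, Ckm and Tnnt3 had too few counts to be tested, and the other 3 summed to 12.7–19.1 CPM in the wild type and 12.2–17.2 CPM in the knockout. The broadly used forms Cox6a1, Cox6b1, Cox7a2 and Cox8a had log2 fold changes of −0.15, −0.10, −0.26 and −0.10, with adjusted p values of 0.434, 0.638, 0.583 and 0.645 (edgeR).

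Complex V had a median log2 fold change of −0.08 over 17 tested members, 11 negative and 6 positive, and none was called. The large subunits of the catalytic head differed little, with log2 fold changes of −0.06 in Atp5a1 (alpha), −0.02 in Atp5b (beta, which holds the catalytic sites) and 0.09 in Atp5c1 (gamma, the central shaft). Atp5b had 1088, 1105 and 1168 CPM in the wild type and 1139, 1063 and 1115 CPM in the knockout, so that the ranges overlapped almost fully. Atp5e (epsilon, of the central stalk) had 75.1, 86.4 and 67.2 CPM in the wild type and 42.5, 88.6 and 29.5 CPM in the knockout, with the highest and the lowest library both in the knockout (log2 fold change −0.51 ± 0.37 SE, adjusted p = 0.508, edgeR). Atp5j2 (subunit f of the membrane part) had 140, 111 and 131 CPM against 88.6, 115 and 69.9 CPM (log2 fold change −0.48 ± 0.19 SE, adjusted p = 0.231, edgeR). The c-subunit genes Atp5g2 and Atp5g3, which encode the same mature protein as Atp5g1, had log2 fold changes of −0.11 and −0.25.

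**Figure D3:**
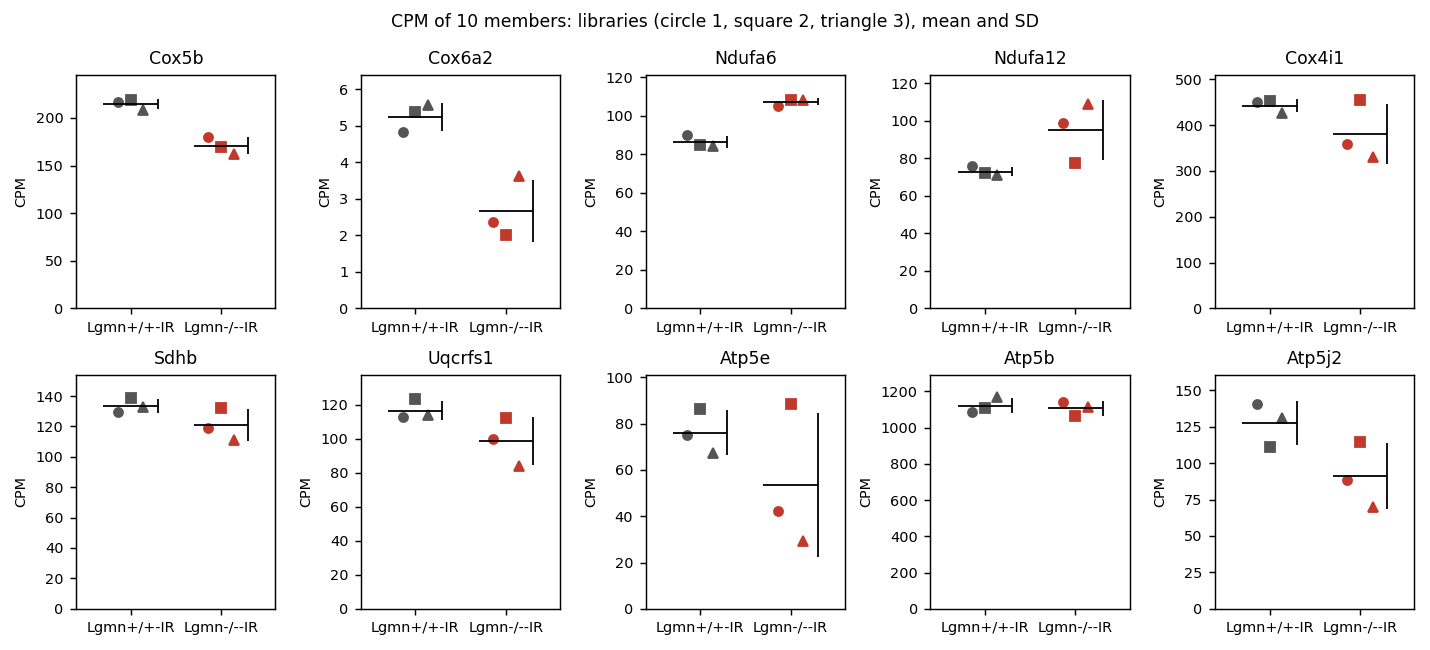
CPM (TMM-normalized, axes from 0) of 10 members in the 3 libraries of each genotype, with the replicate number as the symbol and the mean and SD (n = 3) as the lines. The genotypes do not overlap in Cox5b, Cox6a2, Ndufa6, Ndufa12 and Uqcrfs1, and in Cox4i1, Sdhb, Atp5e and Atp5j2 replicate 2 of the knockout (square) lies at the level of the wild-type libraries.

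The 3 knockout libraries were not alike for these genes. The 82 members summed to 11544, 11808 and 11437 CPM in the wild type and to 10617, 11521 and 10146 CPM in the knockout, that is 11596 ± 191 and 10761 ± 699 CPM (SD, n = 3 each). Replicate 3 of the knockout was the lowest of all 6 libraries in 51 of 82 members (22.3% of all genes tested) and replicate 2 the highest in 27 (14.2% of all genes). The median difference from the wild-type mean on the log2 CPM scale was −0.12, 0.02 and −0.24 in knockout replicates 1, 2 and 3, and it kept this order in complexes I, II and III. In complex IV it was −0.27, 0.05 and −0.26, and in complex V −0.08, 0.01 and −0.05, where the libraries lay closest together. By complex, the summed CPM of complex IV was 2598 ± 118 in the wild type and 2300.5 ± 260 in the knockout, and that of complex V 3822 ± 69.9 and 3669 ± 101 (SD, n = 3 each).

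Values for the whole list changed with single libraries. Without replicate 2 of the knockout the median log2 fold change of the members was −0.17, 36 members reached an unadjusted p under 0.05 (22.1% of all genes in that fit), and 2 were called (2.68% of all genes), Ndufs5 and Cox7a2l (adjusted p = 0.0473, edgeR). Without replicate 3 it was −0.04, 6 members reached an unadjusted p under 0.05 (13.8% of all genes in that fit), and 2 were called (1.62% of all genes), Ndufs5 and Cox6a2 (adjusted p = 0.0334, edgeR). Short transcripts of other genes moved in a like order: the 256 other genes above a log2 CPM of 4 with a longest annotated transcript of up to 1000 bases had medians of −0.02, 0.11 and −0.12 in knockout replicates 1, 2 and 3, and the 8189 longer ones 0.03, 0.02 and 0.06. Among the members, the 40 with a longest transcript of up to 1000 bases had medians of −0.14, 0.04 and −0.23 in these replicates. The 42 longer members had −0.11, 0.004 and −0.25, so that both length classes of members took the same order. The part of transcript length, RNA quality or library preparation in this was not tested.

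**Figure D4:**
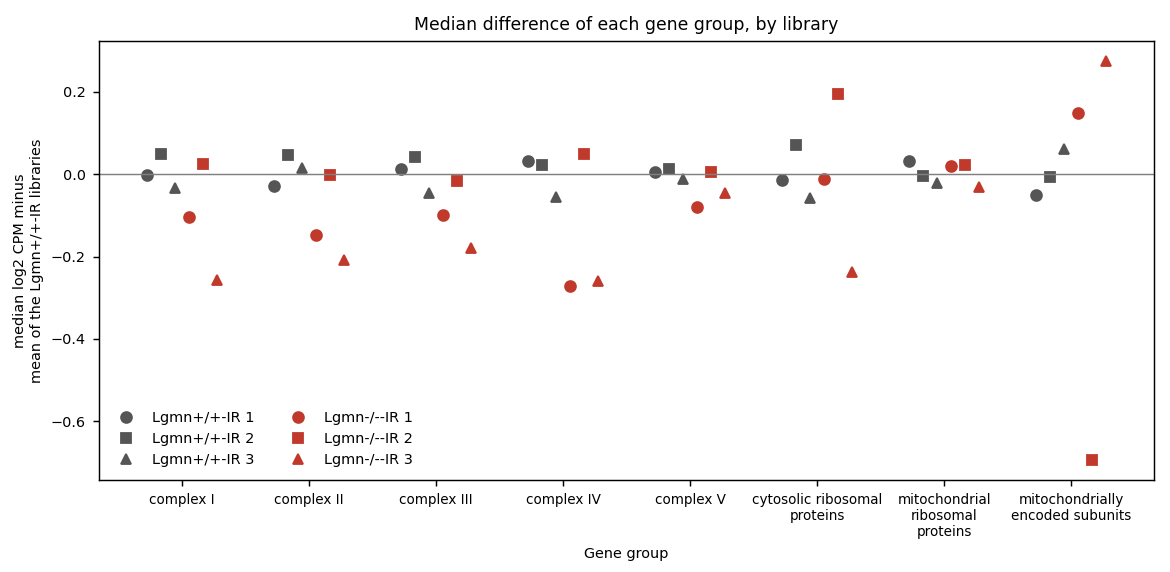
Points give, for each library, the median over a gene group of the log2 CPM minus the mean of the wild-type libraries (grey for wild type, red for knockout, with the replicate number as the symbol). Replicates 1 and 3 of the knockout lie below 0 in all 5 complexes, while replicate 2 lies near 0 there and at −0.69 for the mitochondrially encoded subunits.

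The partners of these genes on mitochondrial DNA took another order. The 13 mitochondrially encoded subunits summed to 74305, 76205 and 78562 CPM in the wild type and to 84836, 48546 and 93567 CPM in the knockout, so that replicate 2, which was at the wild-type level for the nuclear genes, was the lowest here, and replicates 1 and 3 were the highest. None of the 13 was called, 0 reached an unadjusted p under 0.05 (edgeR), and their median log2 fold change was 0.01. The smallest p was that of mt-Nd3 of complex I (log2 fold change −0.31, adjusted p = 0.335, edgeR). Cytosolic ribosomal protein genes summed to 13221, 14103 and 12892 CPM in the wild type and 13595, 15640 and 11693 CPM in the knockout, with the knockout replicates in the same order as for the members (2, then 1, then 3).

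Other genes of the pathway were described by lists written from gene names. Of 39 assembly factors 2 were called, both lower (5.13%, against 3.33% of all genes), 9 reached an unadjusted p under 0.05 (18.6% of all genes), and the median log2 fold change was −0.02. Lyrm7, a chaperone that holds the Rieske protein Uqcrfs1 before its insertion into complex III, had 353, 321 and 394 counts in the wild type and 144, 157 and 169 in the knockout (log2 fold change −1.22 ± 0.14 SE, adjusted p = 0.00588, edgeR). Cox18, which inserts part of the mitochondrially encoded subunit 2 of complex IV into the inner membrane, had 910, 795 and 668 counts against 409, 352 and 382 (log2 fold change −1.10 ± 0.16 SE, adjusted p = 0.0169, edgeR). In both genes the genotypes were well apart in every library. None of 11 electron carriers and subunits outside the name rule was called, among them Cyc1 of complex III at −0.19 (adjusted p = 0.408, edgeR), nor was any of 13 transcriptional regulators or of 14 tricarboxylic acid cycle enzymes (1, 1 and 2 genes at an unadjusted p under 0.05, edgeR, beside 18.6% of all genes). The smallest p among the regulators was that of Gabpb1 (log2 fold change 0.30, adjusted p = 0.239, edgeR) and among the cycle enzymes that of Idh3b (0.35, adjusted p = 0.0664, edgeR). Of 78 mitochondrial ribosomal proteins 2 were called lower, Mrpl9 (−0.84, adjusted p = 0.0195, edgeR) and Mrps14 (−0.86, adjusted p = 0.0496, edgeR), and 13 reached an unadjusted p under 0.05. Of 95 tested cytosolic ribosomal proteins 4 were called, Rpl26 (2.68) and Rpl21 (1.24) higher and Rps3a2 (−4.37) and Rps3a3 (−2.09) lower, with 14 at an unadjusted p under 0.05. Near-identical copies were not sought for either list of ribosomal proteins, so their part in these calls was not tested.

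The levels of the members were compared between genes by the deposited FPKM, which is scaled for transcript length. Complex IV held both the highest and the lowest levels. Cox8a (662–866 FPKM over the 6 libraries), Cox6a1 (508–658) and Cox4i1 (369–564) came first, in this order within every library. Taken over the 6 libraries, the range of Cox8a lay above the others, whereas the ranges of Cox6a1 and Cox4i1 overlapped. The isoforms of muscle, lung or testis were far below their partners: Cox6a2 had 5.14 ± 2.05 FPKM against 599 ± 57.7 for Cox6a1, Cox4i2 2.49 ± 0.33 against 496 ± 79.5 for Cox4i1, Cox6b2 11.8 ± 2.83 against 245 ± 28.7 for Cox6b1, and Cox8b 0.57 ± 0.15 against 765 ± 86.9 for Cox8a (SD, 6 libraries). Cox7a1 had 1.31 ± 0.62 FPKM, while the ranges of Cox7a2 (133 ± 34.4) and Cox7a2l (110.0 ± 23.6) overlapped. Within every library Cox7a2 was the higher of the pair. In complex V, Atp5b (494–567 FPKM) was above all others in every library, followed by Atp5a1 (274–325), which overlapped with Atp5g3 (189–303), the highest of the c-subunit genes. The lowest were Atp5s (7.70–9.27) and Atp5sl (18.5–22.8), the 2 that are not subunits. Over complex I, Ndufb9 (183–286 FPKM) and Ndufa4 (158–242) were highest, and Ndufa4l2 (2.30–3.95) was lowest. The ranges of Ndufb9 and Ndufa4 overlapped, although Ndufb9 was the higher within every library. The 4 genes of complex II did not overlap between neighbors in the order Sdha, Sdhb, Sdhd and Sdhc, although the enzyme holds 1 of each. In complex III the order ran from Uqcr11 (219–289 FPKM) to Uqcrfs1 (50.6–81.7), and most neighbors overlapped.

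**Figure D5:**
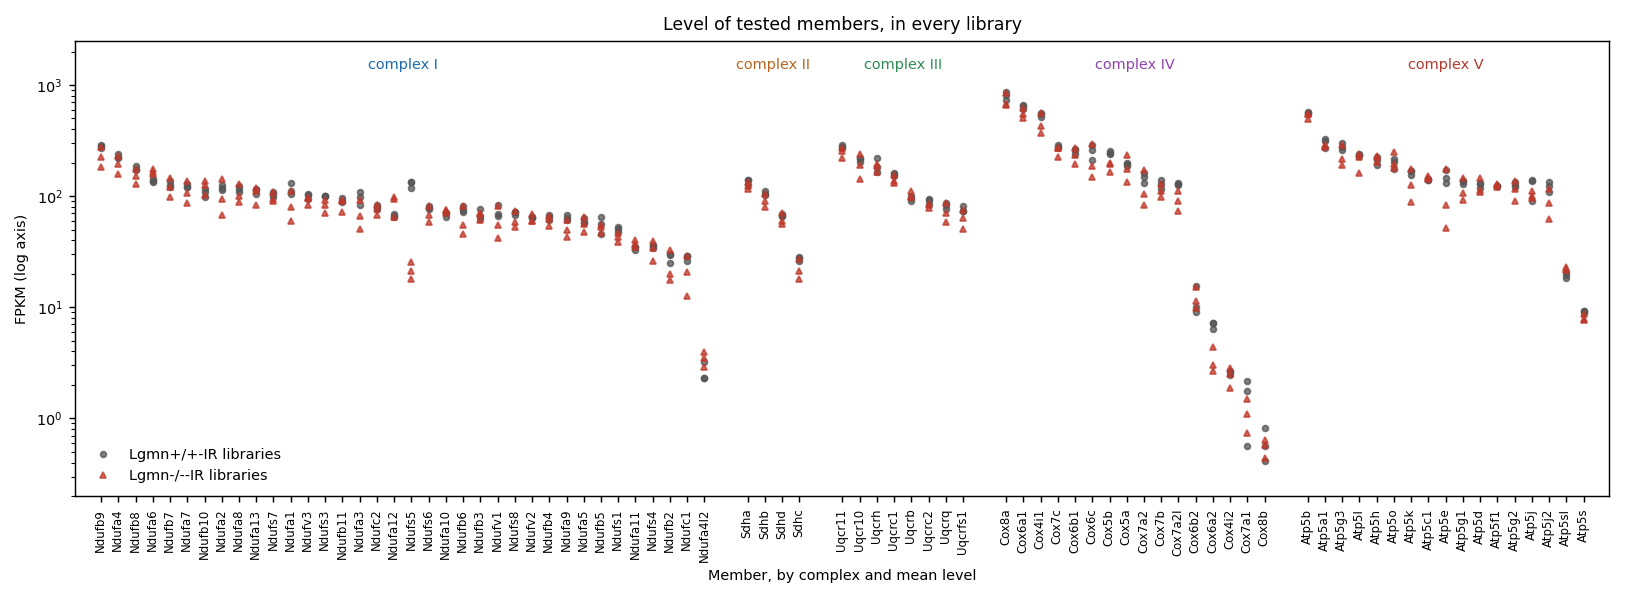
FPKM (log axis) of 81 tested members in every library, ordered by mean level within complexes, with circles for wild type and triangles for knockout. Most members lie within the same decade around 100 FPKM, the tissue-restricted isoforms of complex IV (Cox6b2, Cox6a2, Cox4i2, Cox7a1 and Cox8b) lie far below, and only Ndufs5 shows 2 wide apart clusters.

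The promoters of the members were searched for CpG and for 3 short motifs. In RefSeq windows of 300 bases (250 before to 50 after the start of transcription, GRCm38.p6), 69 of the 84 members were found with 75 windows, which held a median of 19 CpG against 7 over all 32851 windows. The letters CGCATGCG, the core of sites for nuclear respiratory factor 1 (NRF1), were found on either strand in 9 of 75 member windows and 1.87% of all windows. Those genes were Ndufa8, Ndufa11, Uqcrc1, Uqcr11, Cox6a1, Atp5g2, Atp5j, Atp5k and Atp5l. The core of YY1 sites (AAGATGGCG) was found in 9 of 75 and 1.40%, and that of GABPA sites (ACTTCCGG) in 5 of 75 and 3.89%. The 9 windows with the YY1 core came from 8 of the 69 members, because both windows of Atp5sl held it. The window of Ndufs5 held none of the 3 motifs. A match is a description of the letters in this window and not of binding.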

How the data were processed

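The deposited values of 6 cortical libraries were used, 3 from wild-type (Lgmn+/+-IR) and 3 from knockout (Lgmn-/--IR) mice. The authors filtered reads with Trimmomatic 0.36 (submitters' processing notes) and mapped them with HISAT2 to GRCm38, and they deposited the raw count of reads per gene without normalization. The authors computed the FPKM, scaled for transcript length and library size, with StringTie. The counter, its strand setting and its treatment of reads with several matches are not given in the sources used here.

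Genotypes were compared on the counts in R 4.3.3 with the quasi-likelihood F-test of edgeR 4.0.16, after filterByExpr and TMM scaling (Benjamini-Hochberg adjustment over 18345 genes, and a call at an adjusted p under 0.05). The study names limma for this step, which was run as an alternative. CPM are TMM-normalized counts. Log2 CPM have a prior count of 2. Standard errors come from the F statistic. All 84 members were found in GENCODE M21 by gene ID, and their near-identical copies were sought among its transcripts (BLAST 2.17.0+). The members and the other lists were chosen with earlier results of these data known. Genes named are core subunits, isoform sets, called members and, in each complex, the 2 largest and the smallest changes and the highest and lowest levels, and in other lists called genes or those of smallest p. Alternatives were DESeq2 1.42.0, limma 3.58.1 (voom, and log2(FPKM + 1) or log2(FPKM + 0.1)), RLE or no scaling, weaker or stricter count filters, a block for the replicate number, hemoglobin and mitochondrially encoded genes left out, protein-coding members only, each library left out, and summed copies. The test was checked on simulated counts. Within a genotype, pairs of libraries differed with chi-square values averaging 29.0 to 104 over genes, and none was treated as a duplicate. The values of 1 member are not reported here, although it counts in the totals.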

Additional observations from a re-analysis of the deposited data

How the results depend on the processing

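Ndufs5 was called in every fit except that with near-identical copies summed (0 members called, log2 fold change of Ndufs5 0.11 and of Cox7a2l 0.13, chosen after seeing the data). DESeq2 called 3 members (with Cox6a2 and Ndufa6) beside 6.09% of all genes, and limma on log2(FPKM + 1) and on log2(FPKM + 0.1) called 2 each (with Cox6a2) beside 3.11% and 3.13%. Leaving out each library in turn gave 1 to 2 called members and a median log2 fold change of −0.17 to −0.04. Under every alternative run, the median moved by less than the SD of the library medians within the knockout (0.13, n = 3). The same SD within the wild type was 0.036. The median moved by more than this without replicate 2 or 3 of the knockout and with limma on FPKM.

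Changes near 0 turned sign. Ndufv2 was at −0.0329 with total counts only and at −0.0423 and −0.0429 with limma on log2(FPKM + 1) and log2(FPKM + 0.1), and Ndufb3 at −0.0343, −0.0366 and −0.0370 in these fits. Cox5a was at −0.0294, −0.130 and −0.130 in the same 3 fits, at −0.0099 with limma-voom and at −0.0105 with the replicate block. With each library left out, Ndufv2 ranged from −0.0535 to 0.0769, Ndufb3 from −0.0531 to 0.0817, Cox5a from −0.130 to 0.0875, Uqcrh from −0.116 to 0.0753, Atp5b from −0.0402 to 0.0124 and Atp5g2 from −0.222 to 0.0013. The cause was not tested.

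The replicate number as a block left 1 member called and a median of −0.11, and it lowered the calls over all genes from 611 to 150. Same-numbered libraries are different mice, and the mean correlation of their deviations was −0.11. With 3 libraries per genotype, members that missed the threshold are not shown to be equal between genotypes.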
